A study of Mus musculus with 20 samples.

Results

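The genes described here are 8 transcription factors that establish or hold the B lymphoid programme, namely Pax5, Ebf1, Ikzf1, Ikzf3, Foxo1, Lef1, Sox4 and Bcl11a. They were found by their mouse gene symbols among 25869 Entrez identifiers of an RNA-seq table, and all 8 had a row. The table holds 20 mouse libraries with between 12474885 and 26678417 reads counted on genes. Values are CPM, the reads on a gene scaled to 1000000 reads in all over the listed genes.

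The 6 lymphoma lines were grown from tumours of mice transplanted with foetal liver haematopoietic stem and progenitor cells that carried the Eµ-Myc transgene, which drives MYC in the B lineage, and dCas9a-SAM KI/+, and that had been transduced with sgBcl-2. The dCas9a-SAM cassette is a CRISPR activator expressed from the ubiquitous CAG promoter, so that every lymphoma library shares Eµ-Myc, dCas9a-SAM and sgBcl-2, and each line stands for the tumour of 1 mouse. By their labels 4 lines were IgM positive (lines 1 to 4) and 2 were IgM negative (lines 1 and 2), IgM being the first immunoglobulin that a B cell displays. There were 2 primary tumours, libraries 20 and 21, from the mice that gave IgM-positive lines 1 and 2, but titles and descriptions of these libraries contradict each other on which mouse gave which. The 2 preB-ALL libraries, P190CreERLSLErg and P190RagCreErg, are precursor B cell leukaemias with the BCR-ABL1 (p190T/+) genotype, grown with IL7. Mouse embryonic fibroblasts (MEFs) served as the non-B baseline, with 2 WT libraries, 2 dCas9-SAM libraries with no sgRNA, 2 with sgNT and 4 with sgBcl-2, drawn from 2 MEF lines in each group. The progenitors came from E14.5 embryos, the recipients were lethally irradiated, and the MEFs were prepared from E14 embryos.

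In early B lymphopoiesis IKAROS, the product of Ikzf1, opens the lymphoid programme in progenitors, and BCL11A is needed for the first B cell precursors. EBF1 and FOXO1 then act together to specify the B lineage, and PAX5 commits cells to it by activating B cell genes and silencing genes of other lineages. SOX4 and LEF1 are high-mobility-group factors of pro-B cells, LEF1 being a partner of β-catenin in WNT signalling, and AIOLOS, the product of Ikzf3, rises at the pre-B stage. Ebf1, Foxo1 and Sox4 are also used by mesenchymal cells, whereas Pax5 is not.

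All B lineage libraries carried the B cell markers that their labels call for, except that Ms4a1 had 0 to 2 reads in 4 of the 6 lines (IgM-positive lines 3 and 4 and both IgM-negative lines). The summed level of Cd79a, Cd79b, Ptprc and Ms4a1 was 745 to 1263 CPM in the lines, 3305 to 3649 CPM in the tumours, 1981 to 3918 CPM in preB-ALL and at most 7.41 CPM in any MEF library. Both preB-ALL libraries also held fibroblast transcripts. The sum of 12 fibroblast markers was 6031 CPM in P190CreERLSLErg and 2548 CPM in P190RagCreErg, against 3.29 to 39.6 CPM in the lines, 14.0 to 52.1 CPM in the tumours and 8903 CPM or more in every MEF library. Of the 9 myeloid markers 8 were detected in each tumour, with sums of 33.2 and 42.1 CPM, and the WT MEF library 2 held a myeloid sum of 209 CPM against at most 8.48 CPM in the other MEFs. The preB-ALL libraries were the shallowest (14970269 and 12474885 reads), their RNA was extracted with another kit, their column names show another sequencing run, and all 15 mitochondrially encoded genes were at 0 in them, while these took 5.30% to 7.18% of reads in the lines. In any comparison with preB-ALL, tumour type therefore cannot be told apart from kit, sequencing run, read processing or growth with IL7.

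Pax5, Ebf1, Foxo1 and Lef1 were lower in all 6 lines than in both preB-ALL libraries, as were 38.3% of all genes tested. The bases before the start sites of these 4 genes are shown, with that pattern serving only to choose them. Each sequence is the 250 bases upstream of an annotated start, 5′ to 3′ on the strand of the gene, from RefSeq on GRCm38.p6. Capitals mark matches, on either strand, to one of 5 motifs, which were TCCCNNGGG (EBF1), CACGTG (the E-box bound by MYC), TGTTTAC (FOXO1), CTTTGAT (LEF1) and TGGGAA (IKAROS). Pax5 lies at chr4:44524748-44710694 on the minus strand, and its window is chr4:44710695-44710944. Ebf1 lies at chr11:44618100-45008096 on the plus strand and has 2 annotated starts, with windows chr11:44617850-44618099 and chr11:44619978-44620227. Foxo1 lies at chr3:52268337-52350109 on the plus strand, with the window chr3:52268087-52268336. Lef1 lies at chr3:131110297-131224357 on the plus strand, and of its 4 windows the most downstream one, chr3:131156044-131156293, inside the gene, is shown.
Pax5: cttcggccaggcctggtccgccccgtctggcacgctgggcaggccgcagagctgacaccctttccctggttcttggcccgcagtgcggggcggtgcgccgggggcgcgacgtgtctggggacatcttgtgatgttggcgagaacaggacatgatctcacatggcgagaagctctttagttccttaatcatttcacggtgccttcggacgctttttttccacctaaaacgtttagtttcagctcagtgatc
Ebf1, first start: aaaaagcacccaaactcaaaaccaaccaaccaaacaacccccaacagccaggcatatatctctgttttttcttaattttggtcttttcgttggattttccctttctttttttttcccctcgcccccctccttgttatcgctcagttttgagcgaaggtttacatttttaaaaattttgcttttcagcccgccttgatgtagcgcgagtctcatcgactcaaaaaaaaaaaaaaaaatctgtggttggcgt
Ebf1, second start: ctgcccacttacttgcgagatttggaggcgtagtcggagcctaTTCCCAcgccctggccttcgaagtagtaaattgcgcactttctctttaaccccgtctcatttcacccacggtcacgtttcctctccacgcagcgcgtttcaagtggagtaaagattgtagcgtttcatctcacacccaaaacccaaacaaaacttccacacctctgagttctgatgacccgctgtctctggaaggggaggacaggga
Foxo1: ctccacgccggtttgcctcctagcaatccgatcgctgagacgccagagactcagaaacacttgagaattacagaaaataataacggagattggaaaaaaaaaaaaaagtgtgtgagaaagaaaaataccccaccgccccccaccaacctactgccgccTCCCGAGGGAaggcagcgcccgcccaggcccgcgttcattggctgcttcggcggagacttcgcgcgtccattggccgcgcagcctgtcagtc
Lef1, most downstream start: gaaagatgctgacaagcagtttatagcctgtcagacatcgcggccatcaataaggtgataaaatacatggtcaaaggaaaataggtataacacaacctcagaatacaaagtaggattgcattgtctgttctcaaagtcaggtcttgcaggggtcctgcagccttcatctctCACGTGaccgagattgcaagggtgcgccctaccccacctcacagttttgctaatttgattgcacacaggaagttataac

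The window of Foxo1 held the EBF1 letters on both strands, since the match is nearly a palindrome, and its capitals are the union of those 2 overlapping matches, the first base being at -92 from the start. The second window of Ebf1 held the IKAROS letters on the opposite strand at -207, and the window shown for Lef1 held the MYC E-box at -79. Among 32851 windows of the same length in that table, 5.60% held the EBF1 letters, 6.02% the E-box, 3.17% the FOXO1 letters, 3.21% the LEF1 letters and 21.6% the IKAROS letters. No match to any of the 5 was in the windows of Pax5, in the first window of Ebf1, in both windows of Ikzf1 or in the other three windows of Lef1. Sox4 and Bcl11a had 1 match each to the IKAROS letters, at -100 and -161. Ikzf3 had no entry in the table. A match of letters is not a binding site, and its absence says only that these letters are not in the window.

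**Figure D1:**
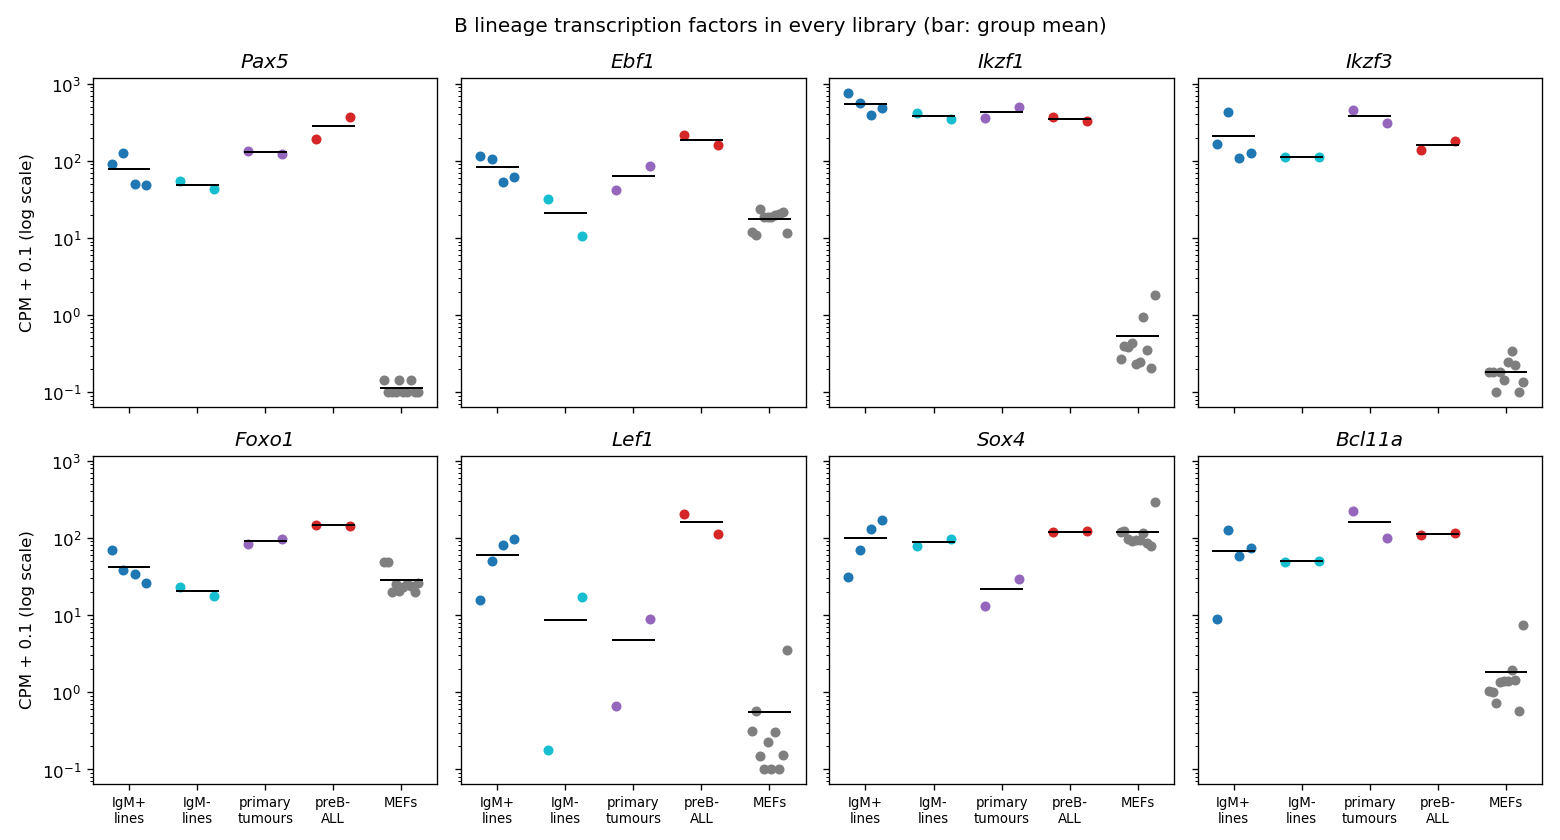
CPM + 0.1 on a log axis for the 8 members in each of the 20 libraries, by group, with a bar at the group mean. Pax5, Ikzf1 and Ikzf3 separate all B lineage libraries from MEFs, whereas Ebf1, Foxo1 and Sox4 are found in both, and Lef1 spreads from 0.0781 to 96.6 CPM over the 6 lines.

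Pax5, the commitment factor, was found in every B lineage library and in no more than a trace in MEFs. It was at 90.6, 125, 50.1 and 48.3 CPM in IgM-positive lines 1 to 4, at 55.2 and 43.1 CPM in the IgM-negative lines 1 and 2, at 136 and 122 CPM in tumour libraries 20 and 21, and reached 194 and 372 CPM in P190CreERLSLErg and P190RagCreErg. The ranges of lines and preB-ALL did not meet, and both tumours were close to IgM-positive line 2, the highest line. The 10 MEF libraries held 3 Pax5 reads in all, and 7 of them held none. Pooled over libraries, Pax5 reads per read sequenced were 6417 times as many in the lines as in the 4 untransduced MEF libraries, with a counting interval at 95% of 1152 to 253456 because these MEFs held 1 read (exact Poisson limits for that read, counting error only).

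Ebf1, the pioneer factor that specifies the lineage with FOXO1, had its lowest B lineage levels in the IgM-negative lines. It was at 114, 107, 52.5 and 61.2 CPM in the IgM-positive lines 1 to 4, at 31.9 and 10.6 CPM in IgM-negative lines 1 and 2, at 41.6 and 85.7 CPM in the tumours, and the leukaemias had 213.5 and 158 CPM. Both IgM-negative lines were below every other B lineage library. MEFs had Ebf1 throughout, from 10.8 to 23.6 CPM, and IgM-negative line 2 sat below all 10 of them.

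Foxo1, the forkhead factor that EBF1 acts with, was the member most alike in both preB-ALL libraries. It was at 70.1, 38.8, 33.7 and 26.3 CPM in IgM-positive lines 1 to 4, at 22.9 and 17.6 CPM in IgM-negative lines 1 and 2, at 83.3 and 97.9 CPM in the tumours, while the leukaemias had 147 and 143 CPM. The order was preB-ALL, tumours, then lines, with no overlap between these 3 kinds of library. MEFs lay between 19.7 and 49.1 CPM, within the range of the lines.

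Ikzf1, the gene of IKAROS, was the most abundant member per kilobase of exon in all 10 B lineage libraries. It was at 749, 558, 392 and 481 CPM in IgM-positive lines 1 to 4, at 418 and 350 CPM in IgM-negative lines 1 and 2, at 362 and 503 CPM in the tumours, while the leukaemias had 374 and 331 CPM. The highest line was 2.14 times the lowest, the narrowest spread of any member over the 6 lines. Among MEFs it reached 1.71 CPM in WT library 2, the one with myeloid transcripts, and 0.106 to 0.848 CPM in the other 9.

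Ikzf3, the gene of AIOLOS, stood apart in IgM-positive line 2. It was at 167, 424, 110 and 126 CPM in IgM-positive lines 1 to 4, at 113 CPM in both IgM-negative lines, at 449 and 306 CPM in the tumours, and the leukaemias had 136 and 179.4 CPM. IgM-positive line 2 and both tumours were above all other libraries, and the remaining 5 lines stayed within 110 to 167 CPM. MEFs held at most 0.242 CPM.

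Lef1 was the most variable member. It was at 15.7, 50.9, 80.0 and 96.6 CPM in IgM-positive lines 1 to 4, at 0.0781 CPM (2 reads) in IgM-negative line 1, at 17.2 CPM in IgM-negative line 2, at 0.569 and 8.68 CPM in the tumours, and at 206 and 113 CPM in preB-ALL. Both tumours were below every line except IgM-negative line 1. In MEFs it reached 3.42 CPM in WT library 2 and at most 0.473 CPM elsewhere, so that IgM-negative line 1 and tumour library 20 were within the range of the non-B baseline.

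Sox4, a high-mobility-group factor that helps pro-B cells survive, was no B lineage marker in these libraries. It was at 30.8, 70.1, 132 and 170 CPM in IgM-positive lines 1 to 4, at 77.6 and 97.7 CPM in IgM-negative lines 1 and 2, at 13.1 and 29.7 CPM in the tumours, and at 119 and 122 CPM in preB-ALL. Both tumours were below every other library of the series. MEFs ranged from 78.9 to 291 CPM, the highest again being WT library 2 and the next 121 CPM.

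Bcl11a, a zinc finger factor of early B cell precursors, was low in 1 line. It was at 8.76, 127, 59.1 and 73.7 CPM in IgM-positive lines 1 to 4, at 49.3 and 50.6 CPM in IgM-negative lines 1 and 2, at 222 and 99.985 CPM in the tumours, and at 109 and 115 CPM in preB-ALL. IgM-positive line 1 held 8.76 CPM although its IgM-positive counterparts held 59.1 CPM or more. MEFs had 0.477 to 1.82 CPM apart from 7.29 CPM in WT library 2.

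Levels of different genes were compared per kilobase of annotated exon (GENCODE vM21, all isoforms joined), since CPM favours long transcripts. On the scale of CPM per kilobase, Ikzf1 led in the lines with a mean of 85.1, followed by Sox4 and Ikzf3 at 20.1 each, Pax5 at 7.76, Ebf1 at 6.45, Lef1 at 4.94, Bcl11a at 4.66 and Foxo1 at 4.03. In preB-ALL Ikzf1 led again at 61.0, but Pax5 came next at 32.0, ahead of Sox4 at 25.1, Ebf1 at 19.0, Lef1 at 18.2, Ikzf3 at 18.0, Foxo1 at 16.7 and Bcl11a at 8.52. In the tumours the order was Ikzf1 at 74.9, Ikzf3 at 43.1, Pax5 at 14.5, Bcl11a at 12.2, Foxo1 at 10.5, Ebf1 at 6.53, Sox4 at 4.47 and Lef1 at 0.526. Sox4 and Ikzf3 were within their spread of each other in the lines, and so were Pax5, Ebf1, Lef1, Bcl11a and Foxo1, whereas in the tumours Sox4 was above Lef1 alone.

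The lymphoma lines were compared with preB-ALL to ask which of these factors separate the lymphoma model from a precursor leukaemia. Pax5 was lower in the lines, at 68.7 ± 32.3 CPM (SD, n = 6) against 283 ± 126 CPM in the leukaemias (n = 2), and the log2 fold change was -1.72 ± 0.40 (SE) with an adjusted p of 0.00950 (limma with Benjamini-Hochberg adjustment). Foxo1 was lower as well, at 34.9 ± 18.8 CPM against 145 ± 2.42 CPM, with a log2 fold change of -1.84 ± 0.44 and an adjusted p of 0.00990 (limma). Ikzf1 was higher, at 491 ± 146 CPM against 353 ± 30.8 CPM, with 0.80 ± 0.26 and an adjusted p of 0.0383 (limma), and 5 of the 6 lines lay above both leukaemias. Fold changes are on the log2(CPM + 0.1) scale after TMM scaling.

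Those 3 of 8 members passed the test, while 43.4% of the 13961 genes tested did. Ebf1 and Lef1 were lower in every line than in both leukaemias, at 62.9 ± 41.0 against 186 ± 39.2 CPM and at 43.4 ± 38.9 against 160 ± 66.1 CPM, without passing the test (log2 fold changes of -1.55 ± 0.79 and -2.87 ± 2.14, limma adjusted p of 0.146 and 0.305). With Pax5 and Foxo1 they make 4 of 8 members whose 6 lines were all below both leukaemias, as were 38.3% of all genes tested. Bcl11a, Sox4 and Ikzf3 overlapped between the groups, at log2 fold changes of -0.86, -0.15 and 0.32 (limma adjusted p of 0.416, 0.846 and 0.593). The median over the 8 members was -1.21, against -0.07 over all genes tested.

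The 2 leukaemias decide these calls. Without P190RagCreErg none of the 8 members passed the limma test, and without P190CreERLSLErg only Pax5 did, the lone leukaemia then being assumed to vary like the lines. With the 2 primary tumours replacing the lines from these mice only Pax5 passed, and for Ikzf1 the call was lost in 8 of 20 alternatives, among them no scaling (0.43, adjusted p = 0.224) and RLE scaling (0.70, adjusted p = 0.0624). Without scaling the median of all genes moved from -0.07 to -0.42, the split of called genes from 2914 higher and 3145 lower to 1691 and 4400, and Ikzf3 turned to -0.04. The fibroblast transcripts of preB-ALL move with these differences, and their part in them was not tested for any member. The highest MEF library held 23.6 CPM of Ebf1, 49.1 CPM of Foxo1, 3.42 CPM of Lef1 and 7.29 CPM of Bcl11a, each below both leukaemias, and 291 CPM of Sox4, above both. In bulk RNA, fewer cells of a type and less RNA per cell cannot be told apart.

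**Figure D2:**
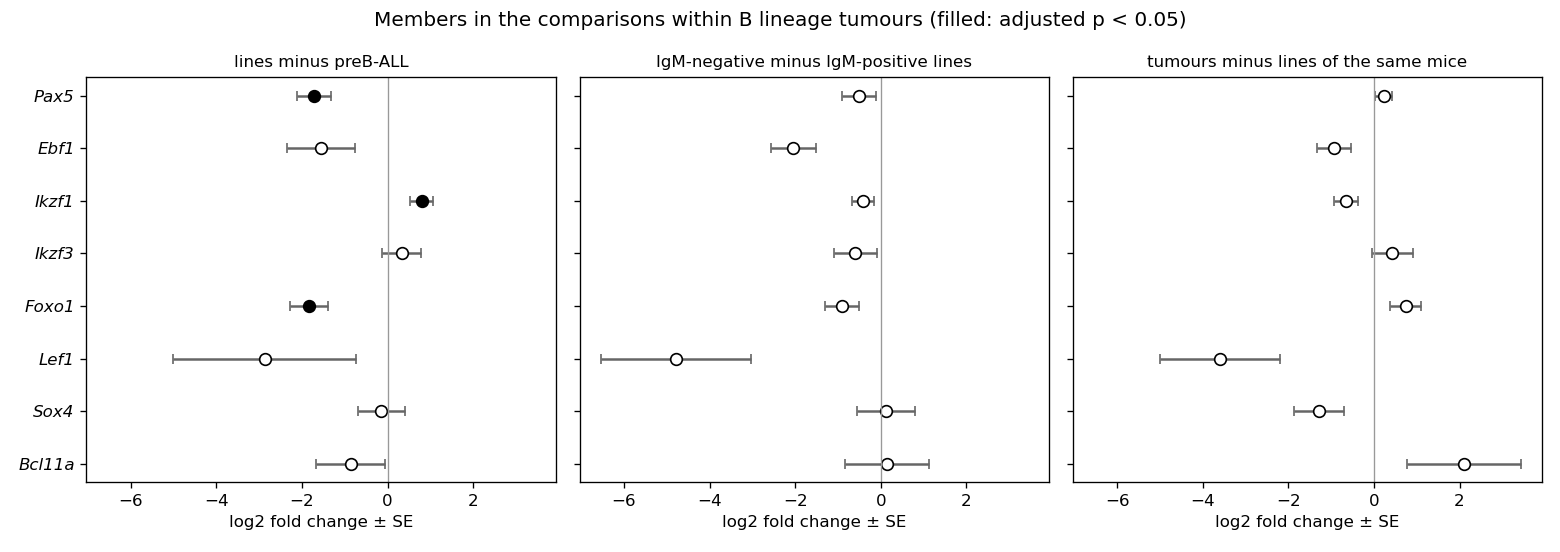
Log2 fold change with its SE for the 8 members (rows) in 3 comparisons (panels), filled where the adjusted p was below 0.05. Pax5 (-1.72), Foxo1 (-1.84) and Ikzf1 (0.80) are filled in the comparison of lines with preB-ALL, no point is filled in the other two panels, and Lef1 has the widest error throughout.

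The IgM-negative lines were compared with the IgM-positive lines because the labels split the lines by this immunoglobulin. Ebf1 and Foxo1 were lower in both IgM-negative lines than in all 4 IgM-positive lines, at 21.2 ± 15.1 against 83.7 ± 31.4 CPM and at 20.3 ± 3.78 against 42.2 ± 19.3 CPM. That is 2 of 8 members, where 14.8% of the genes tested behaved so. Lef1 was at 8.66 ± 12.1 against 60.8 ± 35.5 CPM, and IgM-negative line 2 lay above IgM-positive line 1. Pax5 was at 49.1 ± 8.58 against 78.4 ± 36.5 CPM and Ikzf1 at 384 ± 47.7 against 545 ± 152 CPM, both with overlap. Sox4, Bcl11a and Ikzf3 of the IgM-negative lines lay inside the range of the others.

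With limma 0 of 8 members passed after adjustment, where 0.597% of 12386 genes did, and 2 had an unadjusted p under 0.05, as 11.3% of those genes had. These were Ebf1 (log2 fold change -2.04 ± 0.52, adjusted p = 0.241 by limma) and Lef1 (-4.79 ± 1.75, adjusted p = 0.388 by limma). By edgeR and limma-voom on the recovered reads no member passed, and by DESeq2 only Ebf1 did (-1.90, adjusted p = 0.010). Without IgM-negative line 2 Lef1 passed in limma (-8.08, adjusted p = 0.0423), but this rests on IgM-negative line 1 alone with its 2 Lef1 reads, a lone library assumed to vary like the IgM-positive lines.

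The primary tumours were compared with the lines of the same mice to see what changed with culture. Lef1 and Sox4 were lower in both tumours than in both lines, at 4.62 ± 5.73 against 33.3 ± 24.8 CPM and at 21.4 ± 11.8 against 50.4 ± 27.7 CPM. Ebf1 and Ikzf1 were lower too, at 63.7 ± 31.2 against 111 ± 5.27 CPM and at 432 ± 99.2 against 654 ± 135 CPM. Foxo1 was higher in both tumours, at 90.6 ± 10.3 against 54.5 ± 22.1 CPM. Pax5, Ikzf3 and Bcl11a overlapped. For 5 of 8 members the groups of 2 did not overlap, which held for 57.1% of the genes tested in this comparison.

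No member passed the limma test without pairing (0 of 8, with 0 at an unadjusted p under 0.05), where 0.33% of 12719 genes did and 25.9% had an unadjusted p under 0.05, and edgeR, DESeq2 and limma-voom called no member either. The smallest adjusted p was that of Lef1 (-3.60 ± 1.40, adjusted p = 0.205 by limma). With a replicate block that pairs each tumour with a line by its title, 3 of 8 members passed in limma, where 28.3% of all genes did. They were Ikzf1 (-0.65, adjusted p = 0.0221), Ebf1 (-0.94, adjusted p = 0.0421) and Foxo1 (0.74, adjusted p = 0.0476). With the pairing that the descriptions give, none passed. Over 11633 genes the deviations of tumour and line correlated at 0.60 by the titles and at -0.60 by the descriptions, which is the same value with the pairs crossed. The tumours also held myeloid transcripts (33.2 and 42.1 CPM in sum, against at most 13.1 CPM in any line), and mitochondrially encoded genes took 7.80% and 9.04% of their reads against 5.30% to 7.18% in the lines. The part of either in these differences was not tested.

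MEFs set the level of each gene outside the B lineage. Against the 4 untransduced MEF libraries the lines were higher for Pax5, Ikzf3, Ikzf1, Bcl11a, Lef1 and Ebf1, 6 of 8 members, where 74.2% of 14476 genes passed in either direction and 32.9% were higher. The log2 fold changes were 9.99 ± 0.50 for Ikzf1, 9.96 ± 0.38 for Ikzf3, 9.14 ± 0.33 for Pax5, 4.97 ± 0.79 for Bcl11a, 4.81 ± 1.64 for Lef1 and 1.76 ± 0.59 for Ebf1, with limma adjusted p of 1.86e-08, 3.44e-09, 2.46e-09, 0.000175, 0.0205 and 0.0185. For genes near 0 in MEFs these fold changes depend on the pseudocount of 0.1. Those with only a few MEF reads, such as Pax5 and Ikzf3, passed the filter through the B lineage libraries, which fixed their direction. Foxo1 (-0.17 ± 0.39, adjusted p = 0.715) and Sox4 (-0.76 ± 0.46, adjusted p = 0.158) did not pass in limma. Foxo1 turned positive with all 10 MEF libraries (0.14).

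Against the same MEFs, preB-ALL was higher for 7 of 8 members, all but Sox4, where 57.1% of 15339 genes passed and 25.5% were higher. Foxo1 was among them here, at 145 ± 2.42 against 35.9 ± 15.3 CPM (log2 fold change 1.90 ± 0.41, limma adjusted p = 0.00684), and lost its call with either leukaemia left out (adjusted p of 0.0739 and 0.0673). Sox4 was at 120 ± 2.54 against 153 ± 94.2 CPM (-0.39 ± 0.43, limma adjusted p = 0.458). Both comparisons share the MEF libraries. Without WT MEF library 2, the one with myeloid transcripts, the calls stayed at 6 and 7 members. Lef1 in the lines lost its call with limma-voom (adjusted p = 0.161) and in limma without the no sgRNA library 1 or the WT library 1 (adjusted p of 0.0526 and 0.0640).

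PAX5 and EBF1 activate genes of the B cell receptor and of its precursor form. Of 16 such genes, all tested, 9 were lower in the lines than in preB-ALL, 2 were higher and 5 did not pass (median log2 fold change -2.92), while 22.5% of all genes tested were lower and 20.9% higher. Cr2, a complement receptor, was at 0.149 ± 0.0598 CPM in the lines against 13.8 ± 8.79 CPM (-5.36 ± 0.47, limma adjusted p = 4.62e-05). It failed the filter on low values among the lines alone and entered this test through preB-ALL, so its direction was fixed in advance. Vpreb2, part of the surrogate light chain, was at 2.14 ± 3.01 against 635 ± 247 CPM (-8.88 ± 1.35, adjusted p = 0.00109), and Cd79b, a signalling chain of the B cell receptor, was at 267 ± 63.8 against 1055 ± 597 CPM (-1.53 ± 0.32, adjusted p = 0.00507). Both genes that were higher in the lines, Cd72 and Fcrla, overlapped with preB-ALL and are named for their count alone. In the comparison of tumours with lines 2 of these 16 passed, both higher in tumours, against 0.33% of all genes. They were Ms4a1, the gene of CD20, at 529 and 799 CPM against 4.06 and 7.46 CPM, and Cr2, at 14.9 and 12.4 CPM against 0.203 and 0.225 CPM (limma adjusted p = 0.0498 for both), and they are named after their values were seen. Cr2 passed the filter there through the tumours alone, which fixed its direction. Both calls were lost with edgeR, limma-voom, RLE scaling, no filter, the pairing of the descriptions and any library left out (adjusted p of 0.0512 to 0.320).

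PAX5 silences genes of other lineages. Of 9 such genes 6 were tested, and 3 were lower in the lines, where Pax5 was also lower, while none was higher. That is 3 of 6 called, near the 43.4% of all genes. They were Grap2, a T cell adaptor, at 0.137 ± 0.248 against 10.5 ± 0.832 CPM, Csf1r, the macrophage growth factor receptor, at 0.0385 ± 0.0635 against 0.902 ± 0.425 CPM, and Ly6a, the gene of SCA-1, at 0.435 ± 0.452 against 5.35 ± 0.482 CPM (limma adjusted p of 0.000492, 0.00230 and 0.00631). Grap2 and Csf1r failed the filter on low values among the lines alone and entered this test through preB-ALL, so their direction was fixed in advance. Csf1r is itself a myeloid marker, and in WT MEF library 2 it reached 24.4 CPM. Ly6a was at 45.4 to 966 CPM in MEFs, and the part of the fibroblast transcripts of preB-ALL in the differences of Csf1r and Ly6a was not tested.

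FOXO1 turns on the recombinase and interleukin 7 receptor genes. Of 10 targets, all tested, 1 was lower in the lines and 9 did not pass, a smaller share than the 43.4% called over all genes. Irs2, an adaptor of insulin signalling, was at 0.459 ± 0.577 against 20.0 ± 3.96 CPM (-5.53 ± 1.07, limma adjusted p = 0.00382). It was at 7.41 to 40.8 CPM in MEFs, a range that holds both leukaemias, and the part of their fibroblast transcripts was not tested. Between tumours and lines 1 of the 10 passed, Il7r, at 1.14 and 2.99 CPM in the tumours against 142 and 132 CPM in IgM-positive lines 1 and 2 (limma adjusted p = 0.0498), named after its values were seen, where 0.33% of all genes passed. Its call was lost under the same alternatives as those of Ms4a1 and Cr2, and also with all 4 IgM-positive lines (adjusted p = 0.441).

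Of 9 genes known to respond to LEF1 and WNT signalling 7 were tested, and 2 were higher in the lines, Ccnd1 and Znrf3, where 20.9% of all genes were higher. Ccnd1, the gene of cyclin D1, was at 231 ± 63.8 against 96.1 ± 60.3 CPM (1.74 ± 0.42, limma adjusted p = 0.0108). Znrf3, a ubiquitin ligase that removes WNT receptors, overlapped between the groups. Between the IgM classes 1 passed, Lgr5, a WNT amplifier, which was at 0.0391 and 0.0431 CPM in the IgM-negative lines and at 9.16 to 75.8 CPM in the IgM-positive lines (limma adjusted p = 0.0176), named after its values were seen, where 0.597% of all genes passed. It passed the filter on low values through the IgM-positive lines alone, which fixed its direction. Lgr5 lost its call with edgeR, limma-voom, a pseudocount of 1 and without either IgM-negative line or IgM-positive line 2 (adjusted p of 0.0596 to 0.634).

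Of 29 other regulators of the B lineage 28 were tested, and 7 were higher and 3 lower in the lines than in preB-ALL, with a median of -0.13. These 10 of 28 are no larger a share than the 43.4% of all genes called. Mef2d was at 276 ± 46.4 against 160 ± 29.6 CPM, Ets1 at 465 ± 133 against 235 ± 5.68 CPM and Pou2f1, the gene of OCT1, at 92.5 ± 19.1 against 64.2 ± 3.18 CPM (limma adjusted p of 0.00166, 0.00891 and 0.00909). All 3 lower genes were Id2, at 1.73 ± 0.819 against 17.4 ± 1.73 CPM, Runx1, at 36.3 ± 17.5 against 147 ± 37.4 CPM, and Id3, at 62.5 ± 23.5 against 179.4 ± 4.25 CPM (limma adjusted p of 0.00292, 0.0136 and 0.0281). In MEFs Id2 was at 57.9 to 119 CPM, Id3 at 73.9 to 269 CPM and Runx1 at 31.6 to 87.3 CPM, and the part of the fibroblast transcripts of preB-ALL was not tested. ID proteins hold back the E proteins that act with EBF1, and RUNX1 acts upstream of EBF1.

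**Figure D3:**
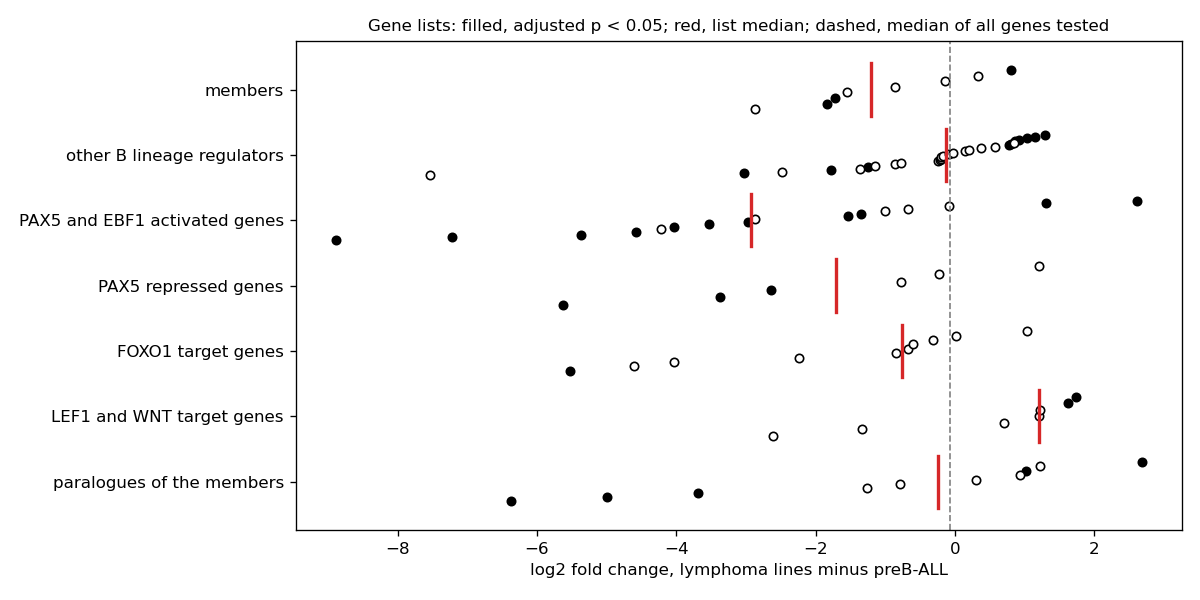
Log2 fold change of lymphoma lines against preB-ALL (horizontal axis) for the tested genes of 7 lists, filled where the adjusted p was below 0.05, with the list median in red and the median of all genes tested (-0.07) dashed. Genes activated by PAX5 and EBF1 reach furthest to the left, to -8.88 for Vpreb2.

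Paralogues of the members were examined because factors of one family bind like sequences. Of 17 paralogues 16 reached a group mean of 1 CPM in some group. Ebf3 alone among the other EBF genes was present in B lineage libraries, at 0.770, 17.7, 5.00 and 0.0498 CPM in IgM-positive lines 1 to 4 and at 71.3 and 88.5 CPM in IgM-negative lines 1 and 2, the lines with the least Ebf1, though neither gene passed between the IgM classes (Ebf3 5.48 ± 1.79, limma adjusted p = 0.333). It was at 22.3 and 0.349 CPM in the tumours, 27.2 and 14.4 CPM in preB-ALL and 10.0 to 35.6 CPM in MEFs. Ebf2 had 0 reads in all 10 B lineage libraries and 11.0 to 23.2 CPM in MEFs, Ebf4 was at most 0.0862 CPM in them against 1.68 CPM or more in MEFs, and Pax8 was at most 0.134 CPM against 0.244 to 4.26 CPM.

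In the TCF family Lef1 was joined by Tcf7l1 and Tcf7l2 in preB-ALL. Tcf7l1 was at 17.6 and 26.7 CPM there and at most 0.216 CPM in the lines (-6.37 ± 0.56, limma adjusted p = 4.58e-05), and Tcf7l2 was at 36.9 and 46.0 CPM against 0 to 7.96 CPM (-4.99 ± 1.51, adjusted p = 0.0277). Both were high in MEFs too, at 19.5 to 38.9 CPM and 11.1 to 26.7 CPM, and the part of the fibroblast transcripts in the leukaemias was not tested. Tcf7l1 failed the filter on low values among the lines alone and entered this test through preB-ALL, so its direction was fixed in advance. Tcf7 stayed at 3.97 CPM or less in the lines, with 2.50 and 9.18 CPM in the tumours.

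Among the IKAROS genes Ikzf5 was higher in the lines than in preB-ALL, at 50.8 ± 6.12 against 32.0 ± 0.160 CPM (1.02 ± 0.14, limma adjusted p = 0.000736). Ikzf4 was lower, at 0.118 ± 0.0952 against 3.17 ± 0.510 CPM (-3.69 ± 0.47, adjusted p = 0.000400), with 1.08 to 4.24 CPM in MEFs. It too failed the filter among the lines alone and entered through preB-ALL, which fixed its direction. Ikzf2, the gene of HELIOS, was at most 0.468 CPM in any B lineage library and 3.34 to 14.9 CPM in MEFs. Of the FOXO genes Foxo3 was even over the lines, at 17.2 to 23.1 CPM, Foxo4 ran from 0.892 CPM in IgM-positive line 1 to 40.5 CPM in IgM-negative line 1, and Foxo6 was at 2.99 to 24.2 CPM. Sox12 was at 15.2 to 95.4 CPM in the lines, whereas Sox11 and Bcl11b were at most 0.848 and 0.249 CPM in B lineage libraries and at 8.49 to 34.5 CPM and 0.903 to 11.7 CPM in MEFs. In all, 2 of the 10 paralogues tested against preB-ALL were higher in the lines and 3 lower, near the 43.4% of all genes called.

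**Figure D4:**
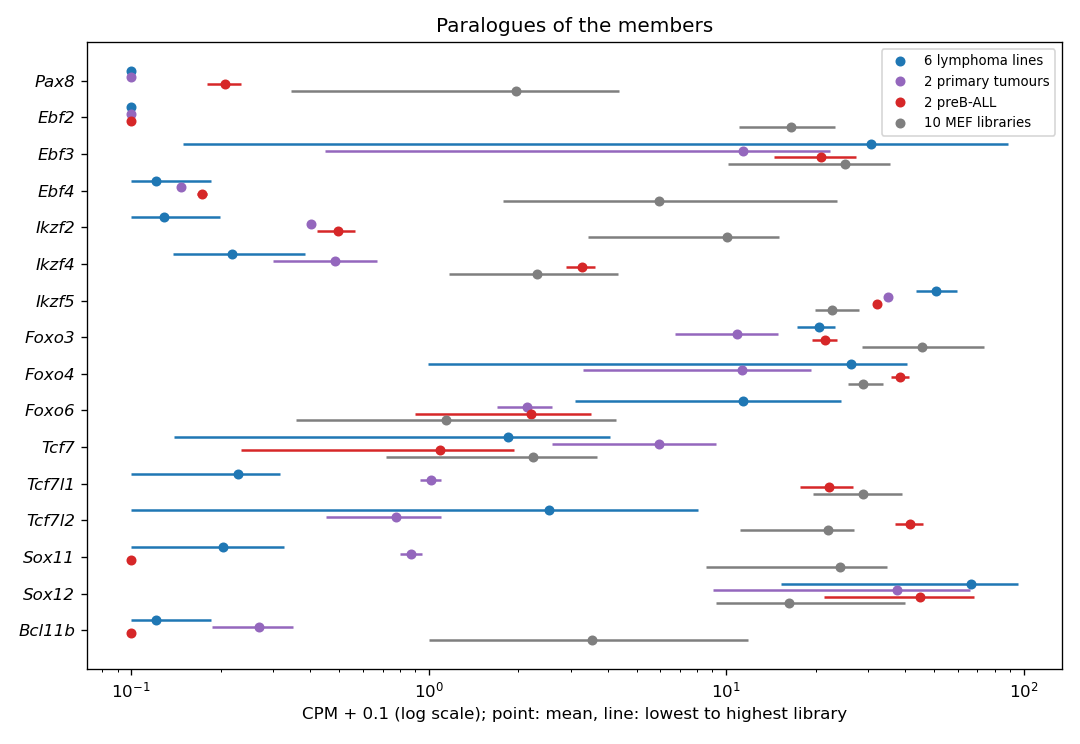
CPM + 0.1 on a log axis for the 16 paralogues with a group mean of at least 1 CPM, with the mean as a point and a line from the lowest to the highest library in the 6 lines, 2 tumours, 2 preB-ALL libraries and 10 MEF libraries. Ebf2 has no read in B lineage libraries, Ebf3 spans 0.0498 to 88.5 CPM over the lines, and Tcf7l1 and Tcf7l2 separate preB-ALL from the lines.

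The pattern of each member over the 8 lymphoma libraries was set against 11417 other genes with a mean of 1 CPM or more, by Pearson's r on the log2 scale. With so few libraries, all labelled with the same lane, and with the closest genes picked from so many, these are descriptions. Closest to Pax5 were Pnpla6, Edaradd and Uck1 (r of 0.988, 0.987 and 0.986), and closest to Ebf1 were Tagln and Pitpnm1 (0.956 and 0.945). Closest to Foxo1 were Nab2, Stk10 and H2-Q7 (0.985, 0.983 and 0.977), to Ikzf1 Nsd3, Tmem30a and Gpd1l (0.984, 0.980 and 0.962), and to Ikzf3 Uspl1, Ralyl and Vopp1 (0.986, 0.985 and 0.984). For Lef1 they were Ndfip2, Lnpk and Rragd (0.954, 0.939 and 0.937), for Sox4 Cnot8, Haus4 and 4933433G19Rik (0.985, 0.977 and 0.975), and for Bcl11a Pigp, Tmem230 and Fam120aos (0.973, 0.970 and 0.968). Some of these genes were low throughout, with Tagln at 1.94 to 3.00 CPM, 4933433G19Rik at 0.701 to 1.33 CPM and Ralyl at 0 to 4.84 CPM. The lowest values of Edaradd, H2-Q7, Nab2 and Vopp1 were 0.0431, 0.0431, 0.129 and 0 CPM. Over the 6 lines alone, without the tumours, Tmem30a and Nab2 ranked 1 for Ikzf1 and Foxo1.

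The 8 libraries come from 6 mice, since both tumours share theirs with a line. Among the members themselves, over these 8 libraries, Pax5 ran most closely with Ikzf3 (r of 0.944) and Foxo1 (0.853), and Ebf1 with Ikzf1 (0.787). Sox4 ran opposite to Pax5 (-0.842), Foxo1 (-0.827) and Ikzf3 (-0.748), and Bcl11a opposite to Ikzf1 (-0.643). Lef1 was tied to none of the others beyond 0.525, its value with Sox4. Over the 6 lines alone Pax5 kept 0.903 with Ikzf3, 0.708 with Foxo1 and -0.717 with Sox4, and Ebf1 kept 0.824 with Ikzf1. Sox4 weakened to -0.428 with Ikzf3 and to 0.285 with Lef1, and Ikzf1 with Foxo1 went from 0.395 to 0.905 and Sox4 with Bcl11a from -0.161 to 0.707.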

How the data were processed

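RNA-seq of 20 mouse libraries was analysed. Per the study's methods, the authors aligned reads to GRCm38/mm10 with Rsubread, counted them per Entrez gene and deposited CPM without a log. Whether counting used the strand is not given in the sources used here. All 100% of the values were whole multiples of 1 read within 0.01, so reads were recovered. Symbols were matched for 25242 of 25869 identifiers through RefSeq (GRCm38.p6).

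Groups were taken from the sample labels. As the unit is CPM, limma 3.58.1 (lmFit and eBayes with trend, R 4.3.3) was run on log2(CPM + 0.1) after TMM scaling, on genes kept by edgeR's filterByExpr, with only the libraries of each comparison, Benjamini-Hochberg adjustment over all genes tested and a threshold of 0.05. The 5 comparisons were lines against preB-ALL, then within the lines IgM negative against positive, tumours against lines of the same mice, and lines and preB-ALL against untransduced MEFs. MEF libraries come from 2 lines a genotype, which the dCas9-SAM libraries repeat, and other groups are 1 library a tumour, so p-values measure the spread between these libraries. On the recovered reads edgeR 4.0.16 called 5560, 24, 0, 10453 and 8444 genes in that order. DESeq2 1.42.0, limma-voom, other scalings, pseudocounts and filters, and each library left out were further alternatives. The code was tested on simulated data.

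The members, gene lists and tests were chosen with earlier results of these data known. Named genes are all members, up to 3 genes per list and direction with the smallest adjusted p whose groups did not overlap (lines against preB-ALL), paralogues with a group mean of 1 CPM, and the 3 genes closest to each member. Others are marked, and 1 list gene and 1 of the closest genes are not reported here. Depth was 12474885 to 26678417 reads, and 3 reads correspond to 0.112 to 0.240 CPM. Counting intervals cover counting error only. Figures were drawn with matplotlib 3.10.9 in Python 3.11.15.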

Additional observations from a re-analysis of the deposited data

Results flagged for a closer look

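In groups of 4 to 6 libraries, 6 values stood so far from the rest that the gap to the nearest library exceeded Dixon's critical value at 95% on the log2(CPM + 0.1) scale. Chance alone marks about 1 in 20 groups, and 32 groups and members were examined. Among the 6 lines these were Ikzf3 in IgM-positive line 2 (424 CPM, the highest), Lef1 in IgM-negative line 1 (0.0781 CPM, the lowest) and Bcl11a in IgM-positive line 1 (8.76 CPM, the lowest). Tumour libraries 20 and 21 held 449 and 306 CPM of Ikzf3, near the value of IgM-positive line 2. Tumour levels of Bcl11a were 222 and 99.985 CPM, above that of IgM-positive line 1 under either reading of their labels.

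Among the untransduced MEFs Ebf1 stood apart in WT library 1 (21.7 CPM, the highest), a value that the sgNT and sgBcl-2 libraries reach as well (up to 23.6 CPM). Pax5 in the no sgRNA library 1 (0.0431 CPM, the highest) is 1 read against none in the other three libraries. In the sgBcl-2 MEFs Bcl11a was highest in library 3 (1.82 CPM).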

How the results depend on the processing

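For the 8 members in 5 comparisons, alternatives kept the direction and the side of the threshold except as follows, and the causes were not tested unless stated. In lines against preB-ALL the number of called members, 3, was 1 with tumours replacing the lines of these mice, and 0 to 3 with each library left out in turn, 0 being without P190RagCreErg. Ikzf1 lost its call without a scaling factor, with RLE scaling, with tumours replacing lines and without IgM-positive line 2 or 4, IgM-negative line 1 or either leukaemia (adjusted p of 0.0533 to 0.289), Foxo1 with tumours replacing lines and without either leukaemia (0.0722 to 0.0984), and Pax5 without P190RagCreErg (0.132). Sox4 turned to 0.042 with edgeR and to 0.15 without IgM-positive line 1, and Ikzf3 to -0.038 without a scaling factor. Between the IgM classes the number, 0, was 1 with DESeq2 and 0 to 1 with each library left out, and Sox4 and Bcl11a turned to -0.15 and -0.35 with edgeR, to -0.15 and -0.35 with DESeq2 and to -0.35 and -0.65 without IgM-positive line 1, and Sox4 to -0.01 without IgM-negative line 2, their highest values being 0.46 and 0.60 without IgM-positive line 4 and IgM-positive line 2. Between tumours and lines the number, 0, was 3 with the replicate block by titles and 0 by descriptions, and Ikzf3 turned to -0.21 without IgM-positive line 1 and was at most 1.05 without IgM-positive line 2. Against MEFs Foxo1 in the lines turned to 0.14 with all 10 MEF libraries, 0.02 without IgM-negative line 2, and 0.03 and 0.055 without the no sgRNA libraries 1 and 2, its lowest value being -0.39 without IgM-positive line 1, and Lef1 lost its call with limma-voom (adjusted p = 0.161) and without no sgRNA library 1 or WT library 1 (0.0526 and 0.0640). Foxo1 in preB-ALL lost its call against MEFs without either leukaemia (0.0739 and 0.0673).

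Counts over all genes that moved by more than 1.5 times were 3668 with tumours replacing lines and 3177 without P190RagCreErg, against 6059 for lines against preB-ALL. Between the IgM classes, where 74 were called, edgeR called 24, limma-voom 1, DESeq2 749, a pseudocount of 1 gave 47, all 10 B lineage libraries in the fit gave 153, and each library left out gave 35 to 117. Between tumours and lines, where 42 were called, edgeR, limma-voom, RLE scaling, no filter, the block by descriptions and each library left out gave 0, no scaling 79, the joint fit 779, all 4 IgM-positive lines 1418, DESeq2 2100 and the replicate block by titles 3600. Groups of 2 limit each of these comparisons, and 2 reads are too few to rank Lef1 in IgM-negative line 1 against MEFs.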

Other observations

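The sgNT and sgBcl-2 MEF libraries entered no main comparison. In them Ebf1 was at 21.1 ± 3.54 CPM (SD, n = 2) with sgNT and at 19.3 ± 0.738 CPM (n = 4) with sgBcl-2, Sox4 at 94.2 ± 4.66 and 97.6 ± 13.1 CPM, and Foxo1 at 22.4 ± 3.52 and 23.1 ± 2.01 CPM. In the MEFs with no sgRNA Foxo1 was at 48.8 and 49.1 CPM, above all other MEF libraries, Ebf1 at 12.0 and 10.8 CPM, below all sgNT and sgBcl-2 libraries, and Sox4 at 119 and 121 CPM, above all of those. The WT libraries 1 and 2 held 21.7 and 11.6 CPM of Ebf1, 19.7 and 26.1 CPM of Foxo1 and 78.9 and 291 CPM of Sox4. These differences were not tested. Erg, the gene named in the labels of both leukaemias, was at 212 and 274 CPM in them, at 65.9 and 42.8 CPM in IgM-positive lines 3 and 4 and at most 0.216 CPM in the other lymphoma libraries. IgM-positive lines 3 and 4 were also those with the most Lef1 and Sox4. These values were picked after they were seen.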
